A study of Mus musculus with 40 samples.

Results

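Collagen chain genes were taken as the rows of the deposited gene count table whose symbol has the form Col, a number, a and a number, which gave 44 of 24062 genes. They were sorted into 11 fibrillar chains, 6 basement membrane chains (type IV), 9 FACIT chains (fibril-associated collagens with interrupted triple helices) and 18 other chains, which include the type VI microfibril, type VIII network, type VII anchoring fibril, transmembrane and multiplexin collagens. RNA-Seq was made from primary mouse embryonic fibroblasts (MEFs) of 13.5-day embryos at passage 3, on a mixed C57BL/6J-129P2OlaHsd background. The embryos were Sall2 wild type (WT), heterozygous (Het) or knockout (KO), Sall2 being a zinc finger transcription factor gene. Cells were left untreated as control or received doxorubicin, a topoisomerase poison that breaks DNA, at 1 µM for 16 h. Control libraries came from 1 WT, 1 Het and 3 KO embryos, and doxorubicin libraries from 1 WT, 1 Het and 2 KO embryos. A further deposited KO doxorubicin column repeated the counts of KO2 in every gene and was left out. The KO embryos are called KO1, KO2 and KO3, the last with a control library only. WT and Het are each 1 embryo, and per the study the KO allele was made in 129-derived stem cells, so the KO embryos also carry 129P2 sequence around Sall2 on chromosome 14.

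Collagens are trimers of alpha chains wound into a triple helix. Type I, III and V chains build the fibrils of skin and bone, with type V setting fibril diameter. Types II, IX and XI build cartilage fibrils. Type IV forms the sheet of basement membranes, type VI forms beaded microfibrils around cells, and type VII anchors epithelia to the underlying tissue. Fibroblasts are the main source of the fibrillar and type VI chains, which are hydroxylated, folded and trimmed by dedicated enzymes.

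The 9 libraries held 15560728 to 24122414 counts. Sall2 was at 756 counts in WT control, 587 in Het control and 388, 432 and 424 in the 3 KO control libraries. With doxorubicin it was at 188 in WT, 164 for Het, and 76 and 81 for KO. Scaled as CPM (defined below), Sall2 in control was at 37.4 for WT, 23.99 for Het, and 19.8, 24.08 and 18.9 for the KO libraries, so the KO2 library lay at the Het level and the other KO libraries below it. With doxorubicin it was at 9.37 and 8.14 CPM in WT and Het, above the 4.24 and 3.72 CPM of KO. Both Het libraries and the control library of KO3 stood apart from the other 6. Levels are given as CPM, read counts scaled to a common library size after TMM (trimmed mean of M-values) normalisation. The summed level of 12 interferon-stimulated genes was 2440 CPM in Het control and 2640 CPM in KO3 control, against 48.1 to 69.0 CPM in the other controls. In Het doxorubicin it was 1550 CPM, against 339 to 427 CPM in the other doxorubicin libraries. The summed level of 11 macrophage markers was 696, 493 and 797 CPM in Het control, KO3 control and Het doxorubicin, against 104 to 214 CPM elsewhere, and no marker was at or under 3 counts in every library. The summed level of 10 fibroblast markers was 2910, 3110 and 2480 CPM in these libraries, against 6200 to 9460 CPM elsewhere, again with no marker at or under 3 counts throughout. Vim, which fibroblasts express strongly, was at 2013 to 7186 CPM and made up most of the fibroblast sum in every library. Not every fibroblast marker was low. Fap was at 23.54 and 28.84 CPM in Het and KO3 control, against 16.31 to 21.7 CPM in the other controls. S100a4 was at 230.4 CPM in KO3 control, inside the 182.0 to 239.2 CPM of WT, KO1 and KO2, and at 101.7 CPM in Het. Fap and S100a4 were picked after their values were seen.

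All 44 chains were above 3 counts in at least 1 library. Collagen chains took between 1.80% (KO3 control) and 5.93% (WT control and KO2 control) of all counts. Wilson 95% intervals of these shares were at most 0.0199 percentage points wide and cover counting error only. Col1a1 and Col1a2, the alpha1 and alpha2 chains of type I collagen, made up 44.7% to 55.8% of collagen counts. Per kilobase of annotated exon, Col1a1 was the most abundant chain at a mean of 2082 CPM per kb over the 9 libraries, followed by Col1a2 at 745, Col4a1 at 413.6, Col5a2 at 377.2, Col5a1 at 349.1, Col4a2 at 334.5 and Col3a1 at 289.1 CPM per kb. Type VI chains Col6a1 and Col6a3 stood at 155.0 and 32.95 CPM per kb. Col13a1, Col6a4 and Col9a1 did not pass the filter on low counts, having at most 18, 9 and 13 counts in any library, which left 41 chains tested for doxorubicin.

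**Figure D1:**
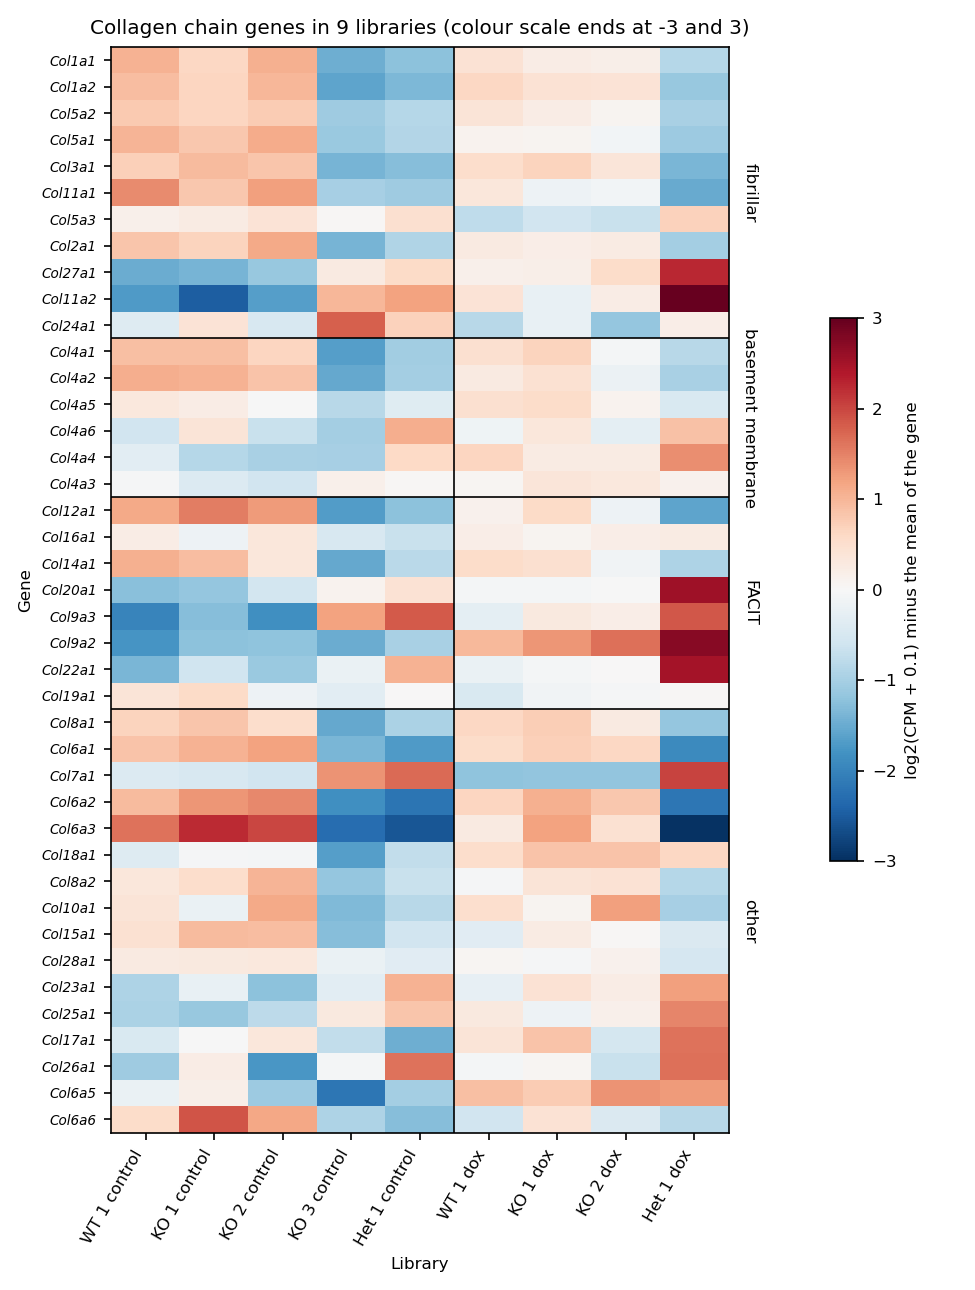
Level of the 41 tested collagen chain genes (rows, by class and mean level) in the 9 libraries (columns, 5 control and 4 doxorubicin), as log2(CPM + 0.1) minus the mean of the gene. KO 3 control, Het 1 control and Het 1 dox are blue for most abundant fibrillar, type IV and type VI chains and red for Col7a1, Col9a3, Col11a2 and Col27a1.

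Type I collagen was high in WT, KO1 and KO2 and low in the Het and KO3 cultures. In control cells Col1a1 was at 23790 CPM in WT, 17820 in KO1 and 24010 in KO2, but at 4902 in Het and 4148 in KO3. Col1a2 was at 14640, 12000 and 15220 CPM in the first 3, and at 3028 in Het and 2555 in KO3. The KO control libraries therefore lay on both sides of the Het library, and the order of the 5 cultures did not follow the number of Sall2 copies. In bulk RNA, fewer cells of a type and less RNA per cell cannot be told apart.

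Type VI collagen held the widest gap. Col6a3, the long alpha3 chain that joins type VI microfibrils, was at 636.6 CPM in WT control, 977.5 in KO1 and 824.0 in KO2, against 34.8 in Het and 42.5 in KO3. Its log2 range over the 5 control libraries was 4.81, the widest among the 41 tested chains. Col6a1 was at 936.7, 1068 and 1202 CPM in WT, KO1 and KO2 control, and at 159.7 in Het and 199.4 in KO3. Of the basement membrane chains, Col4a1 was at 4913, 4877 and 4104 CPM in the same 3 libraries and at 1264 in Het and 826.3 in KO3. Its partner Col4a2 was at 3938, 3806 and 3328 CPM, and at 903.5 in Het and 631.1 in KO3. Col12a1, an abundant FACIT chain of dense connective tissue, was at 2771, 3605 and 3008 CPM against 530.9 in Het and 390.7 in KO3, whereas the FACIT chain Col16a1 ranged from 174.6 to 353.1 CPM over all control libraries. Col8a1, of the type VIII network, was at 1142, 1271 and 1035 CPM against 369.2 in Het and 246.0 in KO3.

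A smaller set went the other way. These chains, and Col3a1 below, were singled out after their values were seen. Col7a1, the anchoring fibril chain, was at 272.8 CPM in WT control, 259.6 in KO1 and 244.9 in KO2, but at 1181 in Het and 923.3 in KO3. Col11a2, a minor cartilage fibril chain, was at 2.42, 1.38 and 2.51 CPM against 18.7 in Het and 16.3 in KO3. Col27a1, a fibrillar chain of cartilage, was at 22.5, 24.1 and 28.9 CPM against 94.0 and 76.0. Col9a3, a chain of cartilage type IX collagen, was at 0.593, 1.02 and 0.669 CPM against 9.60 and 6.21. For these 4 chains the Het and KO3 control libraries did not overlap the other controls. The same held for Col20a1, Col22a1, Col24a1, Col25a1 and Col4a3, so the 4 are examples. The share of all genes without such an overlap was not counted, so the separation is not shown to be a trait of collagens. Relative to WT control, 20 of 41 chains were at least 2-fold lower and 11 at least 2-fold higher in Het, where 11.0% and 21.8% of all 15857 tested genes were. In KO3 the numbers were 22 lower and 9 higher, where 12.6% and 20.4% of all genes were. KO1 had 0 chains at least 2-fold lower (background 2.42%) and 2 higher (3.98%), and KO2 had 0 in either direction (2.38% and 2.14%). These ratios share the WT library and carry no test.

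By class, the median log2 ratio of Het to WT in control was -1.72 for fibrillar chains, -0.30 for basement membrane chains, 0.21 for FACIT chains and -1.01 for other chains, with 0.03 over all genes. For KO3 the medians were -2.12, -0.93, -0.21 and -1.49, with 0.0 over all genes. Scaling by total counts instead of TMM shifted the median of all genes to 0.59 in Het and 0.53 in KO3, and then 16 and 19 chains were at least 2-fold lower (3.6% and 4.5% of all genes). The log2 range over the 5 controls had a median of 2.28 among the chains and 1.02 over all genes, and it was at least 2 in 28 of 41 chains and in 18.2% of all genes. Among the 3 KO controls the log2 SD had a median of 1.15 in the chains against 0.45 over all genes. Genes that build and process collagen were also low in these libraries. Of 13 procollagen proteinase and cross-linking genes, 10 were at least 2-fold below WT in Het and 10 in KO3. Of 15 genes of collagen-modifying enzymes and their partners, 9 and 9 were, and of 19 fibril-associated proteoglycan and glycoprotein genes, 15 and 14 were. In the same libraries 5 and 5 of 10 fibroblast markers were at least 2-fold lower and all 12 interferon-stimulated genes at least 2-fold higher than in WT. Of 11 macrophage markers 7 and 6 were at least 2-fold higher and 1 and 2 at least 2-fold lower. Mrc1, a macrophage mannose receptor, was at 8.996 CPM in WT control and at 0.286 and 0.268 CPM in Het and KO3 control, and C1qa, a complement chain, was at 23.5, 12.2 and 5.89 CPM. Both were named after their values were seen. In Het and KO3 control 3 and 3 of 6 skeletal muscle markers were at least 2-fold above WT. The same numbers of 6 Schwann and neural markers were. Tested endothelial markers had 3 and 1 of 8 higher and 2 and 3 lower. At least 2-fold lower were 4 and 3 of 5 epithelial and 4 and 3 of 7 chondrocyte and osteoblast markers. KO3 also had 1 muscle marker lower and 1 chondrocyte and osteoblast marker higher. Across all genes, 21.8% and 20.4% were higher and 11.0% and 12.6% lower. The part of the cell markers and of the interferon-stimulated genes in the collagen levels was not tested.

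**Figure D2:**
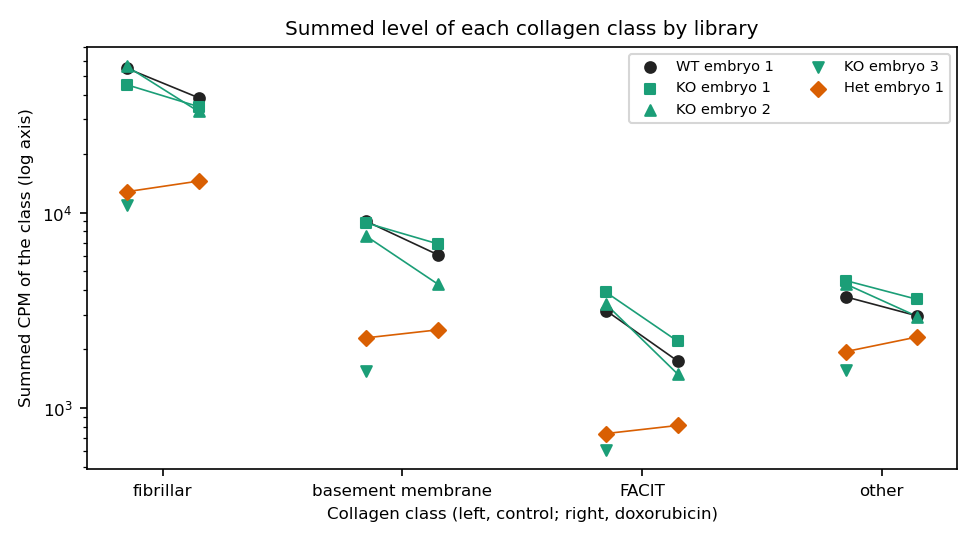
Summed CPM of each collagen class (log axis), with the control library at left and the doxorubicin library at right, joined within an embryo. The fibrillar sum was 45140 to 56140 CPM in WT, KO1 and KO2 control and 12780 and 10930 CPM in Het and KO3 control.

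Bases upstream of 2 chains that were low and 2 that were high in the Het and KO3 libraries are shown as examples of the 2 opposite patterns. They are the 250 bases before the RefSeq start (GRCm38.p6). Capitals mark matches, on either strand, to the CCAAT box, which NF-Y binds, and to GGGCGG, the word of Sp1-type factors. The windows lie at chr1:45311288-45311537 on the plus strand (Col3a1), chr1:90843972-90844221 on the minus strand (Col6a3), chr9:108953336-108953585 on the plus strand (Col7a1) and chr17:34038888-34039137 on the plus strand (Col11a2).
Col3a1: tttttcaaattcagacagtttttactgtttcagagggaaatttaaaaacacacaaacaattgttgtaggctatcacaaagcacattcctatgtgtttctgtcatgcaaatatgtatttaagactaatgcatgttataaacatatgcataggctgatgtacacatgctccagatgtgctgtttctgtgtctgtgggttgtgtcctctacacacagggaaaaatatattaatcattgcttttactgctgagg
Col6a3: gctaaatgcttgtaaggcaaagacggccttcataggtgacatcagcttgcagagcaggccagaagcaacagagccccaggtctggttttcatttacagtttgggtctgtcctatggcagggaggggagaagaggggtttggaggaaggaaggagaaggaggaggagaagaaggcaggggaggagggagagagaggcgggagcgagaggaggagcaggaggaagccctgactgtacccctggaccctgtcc
Col7a1: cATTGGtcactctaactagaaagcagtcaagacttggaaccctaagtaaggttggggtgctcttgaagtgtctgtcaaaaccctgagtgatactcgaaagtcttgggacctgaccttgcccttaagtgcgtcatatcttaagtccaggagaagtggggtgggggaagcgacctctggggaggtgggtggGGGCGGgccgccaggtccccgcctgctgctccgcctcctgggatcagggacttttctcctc
Col11a2: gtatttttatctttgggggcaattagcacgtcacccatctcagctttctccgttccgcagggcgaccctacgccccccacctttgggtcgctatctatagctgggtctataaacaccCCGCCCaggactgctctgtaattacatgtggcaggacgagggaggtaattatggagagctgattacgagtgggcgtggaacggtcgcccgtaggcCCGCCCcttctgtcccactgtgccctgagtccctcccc

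Col3a1, the type III fibril chain, was at 3866 CPM in WT control and 975.3 and 891.2 CPM in Het and KO3 control. Neither its window nor that of Col6a3 held a match to these words or to TGANTCA, the word bound by AP-1. The Col7a1 window held 1 match to each of the first words, and the Col11a2 window held 2 matches to GGGCGG. Other chains that were low in the Het and KO3 controls also held these words. Col1a2, Col4a2 and Col11a1 held both, Col5a1, Col6a2 and Col8a1 held GGGCGG, and Col4a1 held the CCAAT box. RefSeq promoters were matched for 35 of the 44 chains, with 38 windows. GGGCGG was present in 57.9% of these windows and in 32.7% of 32851 promoter windows of all genes. The CCAAT box was in 34.2% and 33.8%, and the AP-1 word in 2.63% and 6.75%, searched on both strands. A match is a description of the letters and no binding was measured. Col4a1 and Col4a2, which encode the chains of 1 trimer, start head to head on chromosome 8 in GENCODE (GRCm38), with Col4a1 beginning at 11312826 on the minus strand and Col4a2 at 11312805 on the plus strand, so that their annotated ends overlap by 22 bases.

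Doxorubicin was compared with control over all 9 libraries, with genotype in the model. Few collagen chains passed the test. At an FDR under 0.01, edgeR's quasi-likelihood test called 1 of 41 chains, where it called 40.9% of all 15857 genes (6482), and 9 chains were at an unadjusted p under 0.05 (60.6% of all genes). The median log2 fold change was -0.02 over the chains and -0.01 over all genes. DESeq2 called 5 chains, all higher (50.4% of all genes, 27.1% higher), with 10 at an unadjusted p under 0.05 (62.7%). Since each doxorubicin library has a control library with the same genotype and number, read as the same embryo, a replicate block for the embryo was fitted over the 8 paired libraries. It called 13 of 41 chains, 7 higher and 6 lower, where it called 58.4% of all genes (30.5% higher and 27.8% lower). Of these 13, 6 passed with each embryo left out of the block in turn: Col9a2, Col11a1, Col11a2, Col18a1, Col27a1 and Col6a3. The other 7 did not. Col2a1, Col5a1, Col24a1 and Col25a1 lost the call without WT, KO1 or KO2 (FDR 0.0162 to 0.0537), Col20a1 without WT or KO1, Col22a1 without WT or KO2 (FDR 0.0153 to 0.0223 for both), and Col12a1 without KO1 (FDR = 0.012). With the control library of KO3 left out and no block, 14 chains passed (59.4% of all genes) and 25 were at an unadjusted p under 0.05 (72.9%). With only WT and KO1 and KO2, a choice made after seeing the data, 22 of 40 chains passed without the block (67.3%) and 31 with it (75.5%), 11 higher and 20 lower (39.4% and 36.0% of all genes).

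Col9a2, the alpha2 chain of the cartilage FACIT type IX, was the chain that rose in every fit named above. It was at 0.494 CPM in WT control, 0.94 in Het, and 0.766, 0.78 and 0.625 in the KO control libraries. With doxorubicin it was at 3.89 CPM in WT, 13.5 for Het, and 5.02 and 6.25 for KO, all above every control. The log2 fold change was 3.17 (SE 0.27, FDR = 5.05e-05 by edgeR's quasi-likelihood test). The level was low, at 10 to 23 counts in control and 78 to 271 counts with doxorubicin. The gene lies on chromosome 4 from 121039385 to 121055322 on the plus strand (GRCm38).

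Cartilage fibril chains did not move as 1 group. Col11a2 was higher with doxorubicin in each of the 4 embryos, at 10.8 CPM in WT, 73.0 for Het, and 6.92 and 9.47 for KO, from the control values given above, and the embryo block gave a log2 fold change of 2.07 (SE 0.15, FDR = 1.57e-05) where the fit without it gave 1.104 (FDR = 0.234). Col27a1 was at 70.8 CPM in WT, 304.5 for Het, and 71.8 and 92.4 for KO with doxorubicin, and its ratios to the control of the same embryo were alike, at 1.65, 1.70, 1.57 and 1.68 on the log2 scale (block 1.65, SE 0.09, FDR = 7.70e-06). Without the block its FDR was 0.0152. Col11a1, the alpha1 chain of the same type XI trimer as Col11a2, went the other way. It was at 1196 CPM in WT control, 212.9 for Het, and 779.3, 1042 and 224.8 for KO, and at 563.5, 155.2, 397.8 and 423.6 CPM with doxorubicin in WT, Het and KO. The block gave -0.96 (SE 0.14, FDR = 4.84e-04 by edgeR) and the fit without it -0.75 (FDR = 0.145). Col2a1 and Col9a3 lie outside the 4 chains per class picked for doxorubicin and were added after their values were seen. Col2a1, the main chain of cartilage fibrils, fell by 0.51 with the block (FDR = 0.00829), where the fit without it gave -0.29 (FDR = 0.589). Col9a3 was higher in WT and both KO embryos, by 1.70, 1.58 and 2.03 on the log2 scale, and by 0.03 in Het, and it missed the threshold in the block (1.27, FDR = 0.0175). Among 7 tested chondrocyte and osteoblast markers, Matn3 and Sp7 rose without the block (2.28 and 2.72 on the log2 scale), and with it Sox9 also rose by 1.14 while Acan fell by 1.65. Over all genes, 21.7% rose without the block, and 30.5% rose and 27.8% fell with it.

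Of the abundant fibrillar chains, Col5a1, which limits fibril diameter, passed with the block and not without it. It was at 5171 CPM in WT control, 1372 for Het, and 4445, 5511 and 1167 for KO, and at 2744, 1197, 2694 and 2376 CPM with doxorubicin in WT, Het and KO. The block gave -0.77 (SE 0.16, FDR = 0.00315) and the fit without it -0.55 (FDR = 0.327). The type I chains did not pass either fit. Col1a1 with doxorubicin was at 15530 CPM in WT, 6321 for Het, and 13390 and 13080 for KO, lower than its own control in WT and KO and higher in Het, and the block gave -0.39 (SE 0.19, FDR = 0.103). Col1a2 was at 11860, 3467, 10400 and 10140 CPM, with a block estimate of -0.23 (SE 0.14, FDR = 0.167). Without the Het embryo, the block gave -0.64 for Col1a1 (FDR = 2.16e-05) and -0.37 for Col1a2 (FDR = 0.00341). Col24a1, a minor fibrillar chain, fell by 0.57 with the block (FDR = 0.00845), where the fit without it gave -1.02 (FDR = 0.109).

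No basement membrane chain passed the main test or the block. Col4a1 with doxorubicin was at 3658 CPM in WT, 1458 for Het, and 4180 and 2502 for KO, and Col4a2 at 2217, 943.4, 2523 and 1638 CPM. The block estimates were -0.29 (SE 0.15, FDR = 0.112) and -0.60 (SE 0.17, FDR = 0.0139). Without the Het embryo, the block gave -0.46 for Col4a1 (FDR = 3.26e-04) and -0.82 for Col4a2 (FDR = 1.09e-07), both past the threshold. Of the minor type IV chains, Col4a4, added after its value was seen, was higher in 4 of 4 embryos, with a main estimate of 1.20 (SE 0.32, FDR = 0.0118), at 5 to 37 counts per library. It passed with DESeq2, without the KO3 control library, and in both fits of WT, KO1 and KO2.

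Among FACIT chains, Col12a1 was at 1370 CPM in WT, 418.6 for Het, and 1847 and 1131 for KO with doxorubicin, below the control of each embryo, and the block gave -0.94 (SE 0.16, FDR = 0.00122). Without the block the estimate was -0.66 (FDR = 0.349). Col20a1 was at 1.14 CPM in WT control, 3.88 for Het, and 1.23, 1.90 and 3.08 for KO, and with doxorubicin at 2.74 in WT, 17.1 for Het, and 2.73 and 2.80 for KO. Its block estimate was 1.33 (SE 0.29, FDR = 0.00389), and that without the block 1.02 (FDR = 0.0569). Col22a1, a chain of tissue junctions such as that of muscle and tendon, was at 0.494 CPM in WT control, 3.11 for Het, and 0.919, 0.613 and 1.25 for KO, and with doxorubicin at 1.25, 8.59, 1.395 and 1.47 CPM in WT, Het and KO (block 1.18, SE 0.27, FDR = 0.00452, without the block 0.98, FDR = 0.0306). Both rested on under 100 counts in every library except the Het doxorubicin library. Col16a1 with doxorubicin was at 317.5 CPM in WT, 330.7 for Het, and 295.8 and 318.7 for KO, inside the range of its controls. Its log2 ratios to the control of the same embryo were -0.03 in WT, 0.92 in Het, 0.24 in KO1 and -0.15 in KO2.

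Of the other chains, Col18a1, a basement membrane proteoglycan whose C-terminal fragment is endostatin, was higher with doxorubicin in every embryo. It was at 110.6 CPM in WT control, 86.1 for Het, and 140.3, 139.2 and 46.0 for KO, and at 207.1, 222.1, 259.1 and 262.4 CPM with doxorubicin in WT, Het and KO, with no overlap of the treatments. Its main estimate was 1.21 (SE 0.31, FDR = 0.0103), just outside the threshold, and the block gave 1.01 (SE 0.11, FDR = 1.15e-04). Col6a3 was lower, at 248.7 CPM in WT, 26.3 for Het, and 475.6 and 281.3 for KO with doxorubicin, below the control of each embryo given above (block -1.10, SE 0.18, FDR = 8.17e-04, without the block -0.78, FDR = 0.377). Col25a1, a transmembrane chain of neurons, was at 0.766 to 3.31 CPM in control and 1.62 to 5.16 with doxorubicin, higher in each embryo (block 0.98, SE 0.25, FDR = 0.00795, without the block 0.68, FDR = 0.160). Col6a1 and Col8a1 with doxorubicin were at 755.5 and 1091 CPM in WT, 138.1 and 318.5 in Het, 853.1 and 1193 in KO1 and 796.8 and 855.5 in KO2, and neither passed the block (FDR = 0.0106 and 0.132). Col7a1 was lower in WT and both KO embryos by 0.80, 0.70 and 0.62 and higher in Het by 0.34 on the log2 scale.

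**Figure D3:**
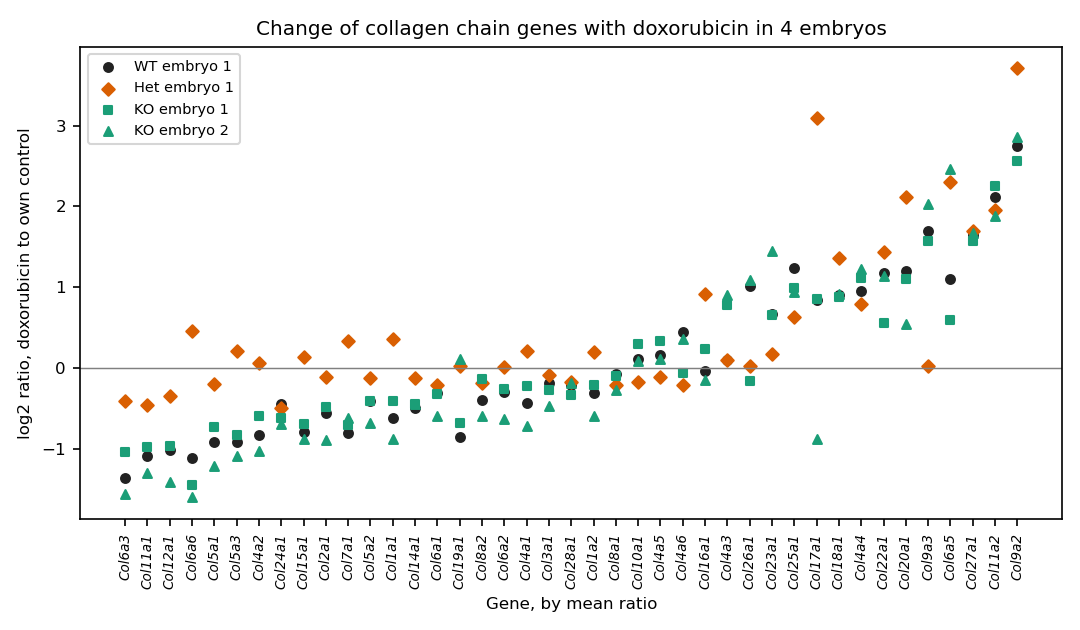
Log2 ratio of the doxorubicin library to the control library of the same embryo (y axis) for the 41 tested chains, ordered by mean ratio (x axis), with 1 point for each of 4 embryos. Col9a2 is highest at 2.57 to 3.71, and the Het embryo (orange diamonds) lies above the others for most chains at left.

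Within embryos, 13 chains were lower with doxorubicin in all 4 and 12 were higher in all 4, where 35.6% and 38.9% of all genes were. Scaling by total counts kept 10 of the 13 and all 12, and lost Col28a1, Col8a1 and Col8a2, while the median of all genes moved from 0.07 to 0.34 in KO2. The doxorubicin libraries lay wholly above the controls for Col18a1, Col6a5 and Col9a2 (24.6% of all genes) and wholly below for 0 chains (22.0% of all genes). The summed level of all chains changed on the log2 scale by -0.52 in WT, -0.39 in KO1 and -0.78 in KO2, and by 0.18 in Het. The FACIT sum, most of it Col12a1, changed by -0.86, -0.84 and -1.19, and by 0.14 in Het. Shares of all counts moved in the same directions, from 5.93% to 4.65% in WT, 5.15% to 4.36% in KO1 and 5.93% to 4.19% in KO2, and from 2.22% to 2.61% in Het. Across the 41 chains the block estimates had a Spearman rho of -0.50 with the mean CPM and -0.11 with genomic span. This is a description over genes that share the same libraries.

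Chains of the same trimer can be set against each other within a library, since a ratio of their counts does not depend on scaling. The ratios were chosen after the data were seen. Col4a1 to Col4a2 was 1.25 in WT control, 1.399 for Het, and 1.28, 1.23 and 1.31 for KO, and with doxorubicin 1.65 in WT, 1.55 for Het, and 1.66 and 1.53 for KO, so that all doxorubicin libraries lay above all controls. The mean log2 change over the 4 embryos was 0.31 ± 0.12 (SD, n = 4, exact two-sided permutation p = 0.125, adjusted 0.208). Col5a1 to Col5a2 was 0.926 in WT control, 0.764 for Het, and 0.884, 1.00 and 0.751 for KO, and with doxorubicin 0.653, 0.726, 0.708 and 0.690 in WT, Het and KO. Its log2 change was -0.36 ± 0.21 (SD, n = 4, exact permutation p = 0.125, adjusted 0.208), lower in 4 of 4 embryos. Col6a3 to Col6a1 was 0.680 in WT control, 0.218 for Het, and 0.915, 0.686 and 0.213 for KO, and with doxorubicin 0.329, 0.191, 0.557 and 0.353. Its log2 change was -0.73 ± 0.38 (SD, n = 4, exact permutation p = 0.125, adjusted 0.208), again lower in 4 of 4. Col1a1 to Col1a2 changed by -0.16 ± 0.23 (SD, n = 4, exact permutation p = 0.25) and was higher in Het alone. Col6a1 to Col6a2 changed by -0.07 ± 0.11 (SD, n = 4, exact permutation p = 0.375). The smallest p that 4 embryos allow is 0.125, and 5 ratios were compared. In the cultures that stood apart, Col6a1 to Col6a2 was 2.67 in Het control and 2.63 in KO3 control, against 1.56 to 1.79 in the other controls.

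**Figure D4:**
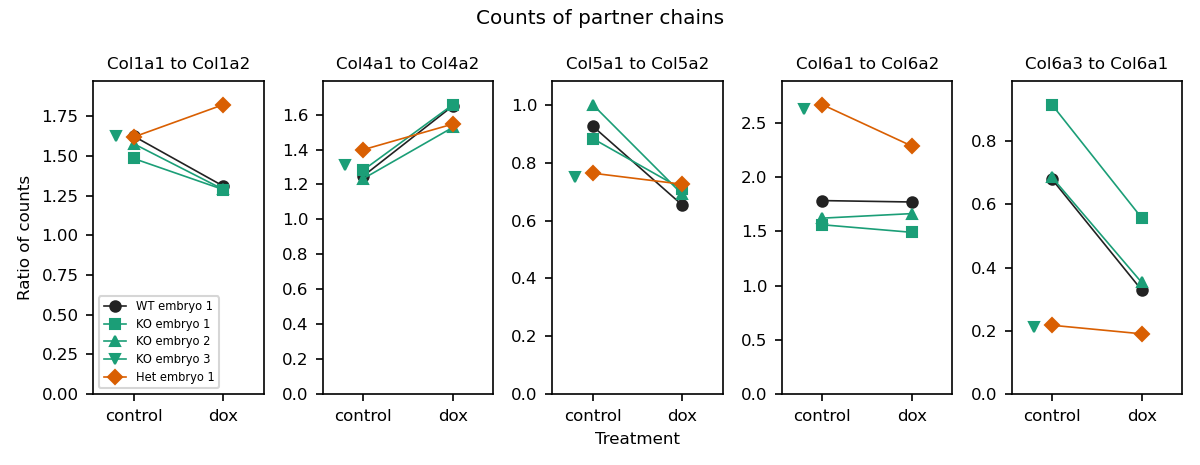
Ratio of counts of partner chains in each library (y axis, starting at 0), control at left and doxorubicin at right, joined within an embryo, with KO3 (control only) set to the left. Col4a1 to Col4a2 was 1.23 to 1.399 in control and 1.53 to 1.66 with doxorubicin.

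The enzymes and partners of collagen were counted in the same fit. Over all genes, 21.7% rose and 19.1% fell at an FDR under 0.01 without the block, and 30.5% and 27.8% with it. Of 15 genes that modify the chains before the helix forms (prolyl and lysyl hydroxylases, collagen galactosyltransferases and their partners), 2 rose at an FDR under 0.01, the galactosyltransferase gene Colgalt2 by 3.21 and the prolyl hydroxylase family gene Leprel2 by 0.69 on the log2 scale, and 12 rose with the block, with a median of 0.54. P4ha1, picked after its value was seen, the catalytic subunit of a prolyl 4-hydroxylase, was at 631.7 CPM in WT control, 188.7 for Het, and 602.8, 548.0 and 204.8 for KO, and with doxorubicin at 976.7, 317.6, 847.1 and 799.3 CPM in WT, Het and KO, higher in each embryo (block 0.60, SE 0.09, FDR = 5.76e-04). Of 10 collagen folding and secretion genes, Ctage5 (-1.53) and Kdelr3 (-0.56) fell and 0 rose, and with the block 2 rose and 2 fell. Of 13 procollagen proteinase and cross-linking genes, Tll2 rose by 5.29, and with the block 4 rose and 1 fell. Colgalt2 and Tll2 rose from near 0. Colgalt2 was at 0 to 0.286 CPM in control and 0.368 to 1.14 with doxorubicin, and Tll2 at 0.0446 to 0.247 and 4.12 to 5.13 CPM. Of 19 tested proteoglycan and glycoprotein genes, Comp (2.76) and Tnxb (2.21) rose, and with the block 3 rose and 3 fell. Of 15 laminin, nidogen and perlecan genes, Lamb3 (4.38) and Lama3 (3.49) were among those that rose, and with the block 4 rose and 3 fell. Of 9 tested collagen receptor genes, Itga2 rose by 1.16 and Ddr2 fell by 0.85, and with the block 4 rose and 2 fell.

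Markers of cell types moved with doxorubicin too, beside the 21.7% of all genes that rose and 19.1% that fell (30.5% and 27.8% with the block). Of 10 fibroblast markers, Pdgfrb (-2.82) and Prrx1 (-1.89) fell and S100a4 (0.77) rose, and with the block 2 rose and 4 fell. Of 8 tested endothelial markers 4 rose, among them Cldn5 (6.49), Esam (3.66) and Vwf (2.27), and of 5 epithelial markers Krt5 (6.90), Epcam (4.48) and Krt19 (2.51) rose and 1 fell. With the block 6 endothelial markers rose, and 4 epithelial markers rose and 1 fell. Cd68 (1.12) rose and Csf1r (-1.12) fell among 11 macrophage markers, where 2 rose and 1 fell with the block. Of 6 skeletal muscle and 6 Schwann and neural markers, Pax7 (5.24) rose and Sox10 (-2.26) fell, and with the block 1 muscle marker also fell. Pax7, Krt5 and Cldn5 rose from near 0, at no more than 0.0511, 0.0557 and 0.0511 CPM in control. With doxorubicin they were at 0.449 to 1.34, 0.497 to 4.91 and 0.596 to 1.84 CPM. Of 10 p53 target genes Phlda3 fell by 1.44, and with the block 4 fell, among them Cdkn1a by 0.72. Of 12 interferon-stimulated genes 0 passed, where 2 rose with the block. Within embryos, 11, 11 and 12 were at least 2-fold higher in WT, KO1 and KO2 (26.5%, 25.9% and 26.4% of all genes). In Het 8 were at least 2-fold lower and 0 higher (18.2% and 23.2% of all genes). The summed levels of the endothelial and epithelial markers were 18.9 to 47.1 and 10.5 to 31.6 CPM in control. With doxorubicin these markers summed to 44.1 to 97.7 and 40.9 to 97.0 CPM, higher in each embryo. Their part in the collagen changes was not tested.

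The KO and WT genotypes were compared within each treatment. In control, edgeR's quasi-likelihood test called 0 of 40 chains and 0 of 14470 genes (0.0%) at an FDR under 0.01, with 0 chains (0.0691% of genes) at an unadjusted p under 0.05. DESeq2 called 0 chains, also at an unadjusted p under 0.05 (0.65% of genes). The chains with the smallest p were Col24a1 (log2 fold change of KO against WT 1.31, SE 1.02, unadjusted p = 0.255, adjusted p = 1.00), Col9a3 (2.18, SE 1.69) and Col27a1 (0.97, SE 0.81). Col24a1 was at 7.46 CPM in WT, 13.1 in KO1, 7.08 in KO2 and 34.2 in KO3, so that the KO spread took in the WT value. Among the KO controls, Col9a3 and Col27a1 were likewise high in KO3 alone. Without that library 0 chains passed and 4 were at an unadjusted p under 0.05 (2.37% of genes). After RUVg normalization with 1 factor and edgeR's exact test, 4 chains were among 163 genes that passed (1.13% of all genes), with Col4a2 at -0.64 (FDR = 8.73e-05), Col4a1 at -0.62, Col14a1 at -0.84 and Col27a1 at 0.59. In TMM-scaled CPM, Col4a1 and Col4a2 in KO1 were within 0.05 of WT on the log2 scale. With 1 WT library, the spread came from the KO embryos only.

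With doxorubicin, 0 of 39 chains passed between 2 KO and 1 WT libraries, where 30 of 15256 genes (0.197%, 0.118% higher and 0.0787% lower) did, and 2 chains were at an unadjusted p under 0.05 (2.84% of genes). DESeq2 called 0 chains and 5 genes (0.0328%, 0.0131% higher and 0.0197% lower), with 1 chain at an unadjusted p under 0.05 (0.518% of genes). Col6a3 was at 248.7 CPM in WT and 475.6 and 281.3 in KO (log2 0.60, SE 0.26, unadjusted p = 0.0195, adjusted p = 1.00 by edgeR). Col8a2, of the type VIII network, was at 21.7 CPM in WT and 29.3 and 30.4 in KO (0.46, SE 0.22). Col15a1, a multiplexin of basement membrane zones, was at 10.9 CPM in WT and 16.6 and 14.3 in KO (0.49, SE 0.26). In all 3 both KO libraries lay above WT by less than the test could separate.

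A slope on the number of Sall2 copies was fitted with WT as 1, Het as 0.5 and KO as 0. In control 0 of 38 chains passed (0.0% of 14280 genes) and 0 were at an unadjusted p under 0.05 (0.077% of genes) by edgeR, with 0 by DESeq2 (0.105% of genes). Without KO3 both counts stayed at 0 (0.0524% of genes at an unadjusted p under 0.05). The smallest p values belonged to Col24a1 (slope -1.17, SE 0.96), Col4a5 (0.36, SE 0.44) and Col6a6 (-1.004, SE 1.55). Col4a5 was at 167.6 CPM in WT, 104.9 for Het, and 156.0, 132.4 and 75.1 for KO control, and Col6a6 at 0.544, 0.0817, 1.53, 0.892 and 0.134 CPM in the same order. With doxorubicin 0 of 39 chains passed (0.0% of 15129 genes), again with 0 at an unadjusted p under 0.05 (0.126% of genes) and 0 by DESeq2 (0.37% of genes at an unadjusted p under 0.05). The smallest p values there were those of Col15a1 (-0.55, SE 0.36), Col8a2 (-0.60, SE 0.49) and Col11a2 (2.02, SE 2.29).

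The response to doxorubicin was compared between KO and WT with an interaction term over 7 libraries. At an FDR under 0.01, 0 of 42 chains and 0 of 15905 genes (0.0%) passed by edgeR, 0 chains were at an unadjusted p under 0.05 (0.258% of genes), and DESeq2 called 0 (0.151% of genes at an unadjusted p under 0.05). The smallest p values belonged to Col11a2 (-1.88, SE 1.93), Col20a1 (-0.85, SE 0.94) and Col9a3 (-1.60, SE 1.88). With the replicate block 0 of 41 chains and 7 of 15442 genes passed (0.0453%). The log2 change of Col11a2 was 2.12 in WT, between the 2.25 and 1.88 of the KO embryos.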

How the data were processed

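Stranded, rRNA-depleted RNA-Seq libraries of MEFs were sequenced as single reads. The authors merged 4 FASTQ files per library, aligned them to mm10 with HISAT2 (version 2.1.0 in the submitters' processing notes), and deposited HTSeq (union mode) read counts per gene. Whether strand was used in counting is not given in the sources used here, so overlapping and antisense genes may share reads. Of 10 deposited columns, 9 were used, since 2 were identical.

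The deposited counts were tested with edgeR 4.0.16 (filterByExpr, TMM, quasi-likelihood test, two-sided, Benjamini-Hochberg over all genes tested, FDR under 0.01) in R 4.3.3. SEs are the absolute log2 fold change divided by the square root of F. Log2 ratios of single libraries used a prior count of 2. DESeq2 1.42.0, RUVg (1 factor, chosen here) with edgeR's exact test in place of the edgeRun test of the study, other filters, library sizes without Rn45s, each library left out and the embryo as a block were tried as alternatives. Scripts were tested on simulated data. The number after the genotype in the labels was read as the embryo, since the study names separate null embryos. The labels do not state it outright. Control and doxorubicin libraries with the same genotype and number were paired on this reading, and the difference of KO embryos 1 and 2 correlated between treatments (r = 0.37 over 15857 genes, against 0.185 with KO embryo 3 as the control in place of KO embryo 2). Sex, read from Xist and Y-linked counts, was the same in both libraries of KO1 and of KO2. KO2 had 5997 Xist counts in control and 4163 with doxorubicin, with 1 and 0 Y-linked counts. KO1 had 3 and 6 Xist counts and 3806 and 1551 Y-linked counts. KO3 control had 31 and 6397, so the duplicated column matched KO2 in sex and not KO3. WT and Het were female, so KO and WT also differed in sex in part. Exon lengths and positions were taken from GENCODE vM21 for all 44 chains.

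Named chains are the 2 with the highest mean CPM in each class, up to 4 per class past the threshold for doxorubicin with the largest change (with or without the block), the 3 with the smallest p in each genotype comparison and, from every other list, up to 3 genes past the threshold. A result that the last rule would name is not reported here. The members and lists were chosen with earlier results of these data known. Depth limits low chains: 3 counts correspond to 0.124 to 0.193 CPM.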

Additional observations from a re-analysis of the deposited data

Results flagged for a closer look

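The Het embryo went opposite to both KO embryos with doxorubicin in 17 of the 51 class sums, tested chains and partner ratios looked at. The difference was not tested, as it rests on 1 Het pair. These values overlap, since the sums and ratios are made from the same chains. The share of all genes with such a reversal was not counted, so the number is no trait of collagens. The summed log2 change in Het was 0.182 for fibrillar chains, 0.136 for basement membrane chains, 0.138 for FACIT chains, 0.251 for other chains and 0.182 for all chains, where both KO embryos and WT were below 0. Among single chains, Het gave 0.367 for Col1a1, 0.196 for Col1a2, 0.207 for Col4a1 and 0.062 for Col4a2, against -0.41 and -0.88, -0.21 and -0.59, -0.22 and -0.71, and -0.59 and -1.02 in KO1 and KO2. Het also gave 0.212 for Col5a3, 0.013 for Col6a2, 0.459 for Col6a6, 0.335 for Col7a1 and 0.141 for Col15a1, where both KO embryos and WT were below 0. Col10a1 and Col4a5 went the other way, at -0.171 and -0.105 in Het and above 0 in WT and both KO embryos. The ratio of Col1a1 to Col1a2 changed by 0.171 in Het and by -0.20 and -0.29 in KO.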

How the results depend on the processing

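The number of chains called for doxorubicin, 1 as reported, moved to 5 with DESeq2, 2 with every gene of at least 1 count, 7 at an FDR under 0.05, 2 with no genotype term and 13 with the replicate block for the embryo. Without 1 library it ranged from 1 to 14, the latter without KO control replicate 3. Without the Het and KO embryo 3 libraries it was 22, and 31 with the block. The block without each embryo in turn gave 7 to 31. For KO against WT in control, RUVg with an exact test moved the count from 0 to 4. The RUVg factor was taken out of the counts before the exact test, which did not allow for its removal, so those FDR values may be too small. RUVg was not run with doxorubicin, where only 3 libraries were compared. The interaction of Col9a3, -1.60, ranged from -2.05 to 0.012 without 1 library each, the latter without KO control replicate 3, and was 0.022 with the replicate block. The cause of these moves was not tested. Of the other values of named chains, 308 kept their direction and side of the threshold and 85 kept their direction and passed it under an alternative. Of the counts of chains called and of the partner ratio changes without each embryo in turn, 64 stayed the same. A count was the same within 1.5 times and a ratio change within its SD. In the genotype comparisons and the interaction, the counts that stayed were all 0. The block changed no other count of chains.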
